A study of Mus musculus with 6 samples.

Results

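Kidney RNA taken around ZT8 was set against kidney RNA taken around ZT20, where zeitgeber time (ZT) counts hours from lights on. The first are called the mid-day and the second the mid-night group, which are names and not measured phases of the light. The mid-day group holds the libraries of ZT4, ZT8 and ZT12, and the mid-night group those of ZT16, ZT20 and ZT0. The libraries were placed by their time label alone, and the 2 groups hold 6 of the 6 libraries of the series, 3 in each. All 6 come from kidneys of male BALB/c mice, an inbred albino strain, at 8 weeks after birth, with 1 library at each time. The labels name no treatment, do not give the length of the light phase and do not say how many mice stand behind a library. Values below are given in the order ZT4, ZT8 and ZT12 for the mid-day group, or by day, and ZT16, ZT20 and ZT0 for the mid-night group, or by night. Times serve as replicates here, so the error of each difference holds the course of a gene within a group and the variation between mice together. The p-values therefore measure a spread between single libraries at different times.

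The circadian clock of a cell is a loop of transcription. BMAL1 (encoded by Arntl) pairs with CLOCK or NPAS2 and binds E-box sequences in front of the period, cryptochrome, REV-ERB and PAR bZIP genes. The period and cryptochrome proteins later block this pair, REV-ERB repressors shut Arntl and Nfil3 down through ROR elements, and the PAR bZIP factors DBP, TEF and HLF act through D-boxes, where NFIL3 opposes them. In kidney the clock is known for its hold on sodium and water transport and on energy metabolism.

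Levels are FPKM, in which fragments are divided by transcript length and by the mapped fragments of each library. They were summed over all transcripts of a gene symbol. The number of reads is unknown, because FPKM holds no counts. The FPKM summed over a library lay between 557004 and 577493 in the mid-day group and between 534448 and 577407 in the mid-night group. Mitochondrially encoded transcripts accounted for 26.0% ± 2.2 of all FPKM in the mid-day group and 24.2% ± 1.7 in the mid-night group (SD, n = 3 each; exact permutation test over libraries, two-sided, p = 0.6, where 0.1 is the smallest p that 3 against 3 allows). On the first principal component of the genes tested, which took 31.4% of the variance, the mid-day libraries lay close together (14.3 at ZT4, 13.8 at ZT8, 11.1 at ZT12). The mid-night libraries were spread out, with -15.1 at ZT16, -25.1 at ZT20 and 0.942 at ZT0. On this component ZT16 and ZT20 lay below 0 and the other 4 libraries above it. On the second component, which took 22.84% of the variance, ZT16 (16.55) lay near ZT12 (14.35) and far from ZT20 (-7.57). The others were 5.37 at ZT8, -10.9 at ZT4 and -17.8 at ZT0. Results without ZT16 and ZT20 are given below, with ZT0 alone as the mid-night group. The tissue label was met by its markers, since all 13 markers of the first proximal tubule segments, 10 of 10 markers of the thick limb and distal convoluted tubule and 10 of 10 principal cell markers were measured above 1 FPKM on average, and 0 of 10 adrenal and 0 of 8 neutrophil markers were.

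Of 12709 genes that averaged 1 FPKM or more, 0 (0%) differed between the groups at an adjusted p under 0.05 (limma on log2(FPKM + 1), Benjamini-Hochberg over all genes). At an unadjusted p under 0.05 there were 1631 genes, 621 of them higher in the mid-day group (4.89% of the genes tested) and 1010 lower (7.95%). In 7.45% of the genes each mid-day library lay above each mid-night library, and in 11.2% each lay below. These shares are the background for the counts that follow. Differences are on the log2(FPKM + 1) scale, mid-day minus mid-night, which understates the change of low genes. Most were small, with a median size of 0.32 among the 1631 genes, and 39 genes reached a size of 1 (17 higher and 22 lower). The median over all genes was -0.02. With libraries rescaled by the median of ratios the split was 784 higher and 825 lower, so the excess of lower genes depends on the scaling. Without ZT16 and ZT20, 9 genes passed the adjusted threshold and 672 the unadjusted one. Without ZT20 alone the unadjusted count was 724, and without ZT0 it was 2526.

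A step between groups is not the course that a clock gene takes, and a 24 h cosine with its axis from ZT8 to ZT20 was fitted as an alternative with a sine term for the other axis. Scaled to the same difference between groups, it gave 45 genes at adjusted p under 0.05 (0.354% of those tested), 14 higher around ZT8 and 31 higher around ZT20, and the groups of 28 of them did not overlap. Where the text below gives a cosine adjusted p, it is the limma adjusted p of this fit. Higher around ZT8 or around ZT20 gives the sign along this axis and does not place the peak of a gene.

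Clock genes held several of the widest differences, in both directions. Dbp, Tef, Hlf, Nr1d1, Nr1d2, Per3 and Ciart were higher in the mid-day group, and Arntl, Npas2, Nfil3 and Cry1 were lower. Dbp was 40.1 ± 24 FPKM in the mid-day group and 3.42 ± 1.43 FPKM in the mid-night group (SD, n = 3 each). Arntl was 1.57 ± 1.96 FPKM in the mid-day group and 8.43 ± 2.43 FPKM in the mid-night group (SD, n = 3 each). None of the 19 clock genes tested passed the adjusted threshold between groups. Under the cosine 9 passed, namely Arntl, Npas2, Nfil3 and Cry1 around ZT20 and Dbp, Tef, Nr1d1, Nr1d2 and Per3 around ZT8.

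The promoters of 5 genes that hold matches, out of 18 windows searched, show 3 sequence patterns tied to the clock. In these 5, E-boxes and D-boxes lie before genes higher in the mid-day group, and the ROR pattern before genes of either sign. The windows of Cry1 and Slc16a1, not shown and both with a negative difference, also hold an E-box. All windows run from 250 bases before to 50 bases after the RefSeq start (GRCm38.p6), read on the strand of the gene. The RefSeq start nearest to the start of the most abundant transcript was used. The distance between them was 252 bases for Tef, 159 for Dbp, 102 for Slc9a3 and 0 to 60 for the rest. Ciart (chr3:95882179-95882478, reverse strand), Per3 (chr4:151044616-151044915, reverse) and Slc9a3 (chr13:74121163-74121462, forward), which encodes the proximal tubule sodium-proton exchanger NHE3, were higher in the mid-day group. Arntl (chr7:113207215-113207514, forward) and Nfil3 (chr13:52980990-52981289, reverse) were lower. Capitals mark the E-box CACGTG, the D-box TTATGNAA and TNGGTCA, a loose pattern for the ROR element, searched on both strands. N stands for any base, so a match to TNGGTCA is not in itself a ROR element. Elements with other letters are left unmarked, and binding was not tested.
Ciart: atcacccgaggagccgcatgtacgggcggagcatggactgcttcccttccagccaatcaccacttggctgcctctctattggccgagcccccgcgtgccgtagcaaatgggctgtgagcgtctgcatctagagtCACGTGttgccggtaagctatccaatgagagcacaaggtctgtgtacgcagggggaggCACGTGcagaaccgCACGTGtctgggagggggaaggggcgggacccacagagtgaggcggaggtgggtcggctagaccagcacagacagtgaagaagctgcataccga
Per3: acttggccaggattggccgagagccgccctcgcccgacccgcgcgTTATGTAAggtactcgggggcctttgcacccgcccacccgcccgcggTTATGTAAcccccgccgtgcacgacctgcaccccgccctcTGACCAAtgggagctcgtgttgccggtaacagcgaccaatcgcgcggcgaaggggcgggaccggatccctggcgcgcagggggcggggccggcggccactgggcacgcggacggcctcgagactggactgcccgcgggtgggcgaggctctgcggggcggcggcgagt
Slc9a3: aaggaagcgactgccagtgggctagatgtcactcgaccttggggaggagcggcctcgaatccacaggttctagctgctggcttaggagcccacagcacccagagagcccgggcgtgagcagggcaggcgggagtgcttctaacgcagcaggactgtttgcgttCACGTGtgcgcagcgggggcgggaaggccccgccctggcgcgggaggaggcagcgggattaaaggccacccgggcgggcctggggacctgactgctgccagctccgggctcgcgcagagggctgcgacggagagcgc
Arntl: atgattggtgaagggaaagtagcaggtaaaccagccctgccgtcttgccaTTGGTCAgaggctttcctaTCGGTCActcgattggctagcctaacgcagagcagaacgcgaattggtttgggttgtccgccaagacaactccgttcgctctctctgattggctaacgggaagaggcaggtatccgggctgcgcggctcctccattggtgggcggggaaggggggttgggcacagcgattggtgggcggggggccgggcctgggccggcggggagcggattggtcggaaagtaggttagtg
Nfil3: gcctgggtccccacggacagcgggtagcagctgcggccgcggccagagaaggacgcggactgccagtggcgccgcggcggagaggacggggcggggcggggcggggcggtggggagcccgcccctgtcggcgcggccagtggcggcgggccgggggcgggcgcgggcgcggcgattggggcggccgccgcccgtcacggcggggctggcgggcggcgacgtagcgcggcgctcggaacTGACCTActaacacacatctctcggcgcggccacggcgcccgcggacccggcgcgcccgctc
The Ciart window holds 3 E-boxes, which begin 116, 58 and 44 bases before the start, and that of Slc9a3 holds 1 at 87 bases. The Per3 window holds D-boxes at 205 and 158 bases and a match to the ROR pattern at 118. The Arntl window holds matches to the ROR pattern at 200 and 181 bases, and that of Nfil3 holds 1 at 12. Of the other windows searched, that of Tef holds an E-box at 127 bases, which may lie inside its most abundant transcript. That of Per1 holds an E-box at 166 and a D-box at 24. The windows of Cry1 and Slc16a1, both with a negative difference, hold an E-box at 60 and 200 bases. E-boxes were thus found in windows of genes of either sign. The window of Cry2 holds a match to the ROR pattern at 133. None of the 3 patterns was found in the windows of Dbp, Nr1d1, Nr1d2, Npas2, Hlf, Avpr1a, Sgk1 and Upp2, which says only that these letters are not there. Such matches are common. Of 9043 tested genes with a promoter, 10.51% held the E-box, 1.95% the D-box and 9.75% the ROR pattern. Among promoters of genes higher in the mid-day group at unadjusted p under 0.05 the shares were 11.26%, 1.61% and 9.43%, and among those lower 10.79%, 2.3% and 8.63%.

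Among the outputs of the loop, Dbp (chromosome 7 from 45705088 to 45710203, GRCm38) stood at 18.4, 65.9 and 36.1 FPKM at ZT4, ZT8 and ZT12 and at 5.07, 2.54 and 2.66 FPKM at ZT16, ZT20 and ZT0. Its lowest mid-day library was above its highest mid-night library, and the difference was 3.09 ± 0.43 (SE; limma adjusted p = 0.263; cosine adjusted p = 0.019). Tef had 52.3, 70.8 and 68.2 FPKM in the mid-day libraries and 40.2, 28.5 and 36.7 FPKM in the mid-night libraries, without overlap. The third PAR bZIP factor, Hlf, had 43.3, 53.7 and 61.1 FPKM by day and 43.3, 40.2 and 39.1 FPKM by night, a difference of 0.35 ± 0.12, and its ZT4 and ZT16 libraries were nearly equal. Nfil3, the repressor at the same D-boxes, ran the other way, with 1.22, 0.597 and 2.34 FPKM in the mid-day group and 4.88, 13.5 and 5.47 FPKM in the mid-night group (difference -1.85 ± 0.39; cosine adjusted p = 0.0325). In all 4 of these genes the mid-day and mid-night libraries did not overlap, 3 of them higher and 1 lower, against 7.45% and 11.2% of all genes.

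The repressors of Arntl followed the outputs. Nr1d2, which encodes REV-ERB beta, had 32.9, 45.9 and 44.0 FPKM in the mid-day group and 19.4, 6.40 and 16 FPKM in the mid-night group, a difference of 1.60 ± 0.36 without overlap. Nr1d1, which encodes REV-ERB alpha, had 40.0, 27.9 and 7.67 FPKM in the mid-day group and 1.47, 1.14 and 12.9 FPKM in the mid-night group. Its highest library was ZT4 and that of Nr1d2 ZT8. The level of Nr1d1 at ZT0 exceeded that at ZT12, so its groups overlapped, with a difference of 2.37 ± 0.82 (cosine adjusted p = 0.019).

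The activators ran against the outputs. Arntl had 3.83, 0.371 and 0.519 FPKM in the mid-day group and 5.84, 10.7 and 8.79 FPKM in the mid-night group, without overlap (difference -2.09 ± 0.47; limma adjusted p = 0.294; cosine adjusted p = 0.0346). Npas2 had 3.01, 0.354 and 0.186 FPKM in the mid-day group and 1.65, 10.0 and 9.78 FPKM in the mid-night group, where ZT16 was still below ZT4. Clock, the other partner of BMAL1, differed little, with 13.7, 8.25 and 8.53 FPKM by day and 11.9, 13.2 and 12.4 FPKM by night (difference -0.31 ± 0.17).

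The period and cryptochrome genes differed among themselves. Per3 had 2.24, 4.99 and 5.52 FPKM in the mid-day group and 2.46, 1.23 and 1.10 FPKM in the mid-night group, overlapping only at ZT4 and ZT16 (difference 0.99 ± 0.30). Ciart, a repressor of the BMAL1 pair, had 0.620, 6.66 and 3.76 FPKM in the mid-day group and 0.781, 0.123 and 0.333 FPKM in the mid-night group, with its ZT4 library inside the mid-night range. Per2 was lowest at ZT0 (0.941 FPKM) and highest at ZT16 (11.8 FPKM), yet its groups averaged 6.12 ± 4.16 FPKM by day and 6.83 ± 5.48 FPKM by night (SD, n = 3 each). The difference of the log values was 0.05 ± 0.75, opposite in sign to that of these means. Its high libraries, ZT12 and ZT16, were on either side of the border between groups, and so were its low ones, ZT4 and ZT0. Cry1, with 0.614, 1.79 and 5.91 FPKM in the mid-day group and 9.05, 9.29 and 2.45 FPKM in the mid-night group, differed by -1.17 ± 0.60 and passed under the cosine (cosine adjusted p = 0.0469). Cry2 had 4.11, 5.54 and 6.64 FPKM by day and 6.07, 5.61 and 3.39 FPKM by night, with overlap (difference 0.10 ± 0.22). The plot of the clock genes by library shows 12 of these genes with the mean of each group.

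**Figure D1:**
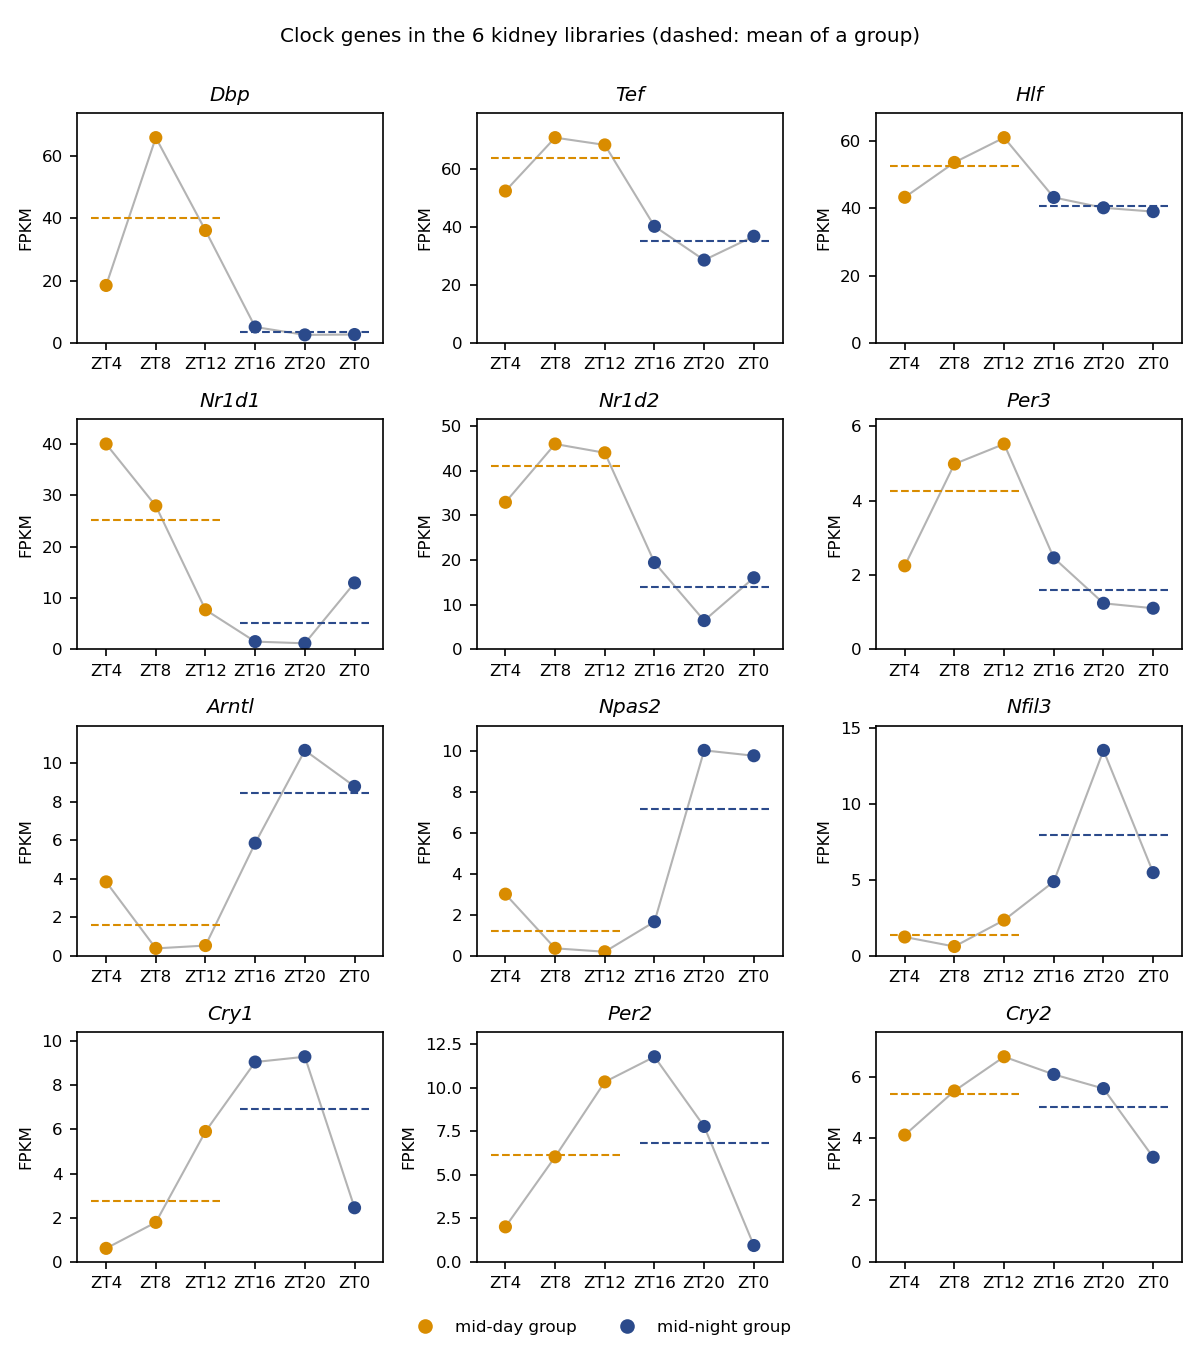
FPKM of 12 clock genes (y axis, linear, from 0) in the 6 kidney libraries in order of time (x axis), with the 3 mid-day libraries left in orange and the 3 mid-night libraries right in blue. Dashed lines are the means of the groups. Dbp, Tef, Hlf and Nr1d2 lie higher in each mid-day library and Arntl and Nfil3 lower, while Per2 and Cry2 peak at the border and their group means lie close together.

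Over all genes, those with the smallest p were named in each direction, 12 higher (Dbp and Tef of the clock included) and 12 lower, among those that averaged 5 FPKM or more and had groups that do not overlap, with unnamed gene models left out. The smallest p of all genes belonged to such a model, Gm20257, added here after its values were seen, with 18.2, 20.6 and 9.49 FPKM in the mid-day group and 0.747, 0.379 and 0.978 FPKM in the mid-night group (difference 3.28 ± 0.28; limma adjusted p = 0.0643). A transcript of 130 bases, ENSMUST00000188643, carried 95.2% of its FPKM by day and was listed at 0 in all 3 mid-night libraries. Each mid-night level of Gm20257 was under 1 FPKM, so this gene entered the test through the mid-day group. Over the alternatives its adjusted p lay between 0.00721 (without ZT12) and 0.645 (without ZT16 and ZT20). For the 24 named genes, that choice fixes the gap between groups, so their values are a description. Slc9a3 had 48.4, 51.0 and 42.1 FPKM in the mid-day group and 33.6, 30.9 and 35.2 FPKM in the mid-night group (difference 0.49 ± 0.09; limma adjusted p = 0.294; cosine adjusted p = 0.0409). Cpeb3, which encodes an RNA-binding regulator of translation, had 10.5, 14 and 12.8 FPKM in the mid-day group and 8.01, 7.15 and 7.62 FPKM in the mid-night group (cosine adjusted p = 0.0409). Nadsyn1, which encodes the last enzyme of NAD synthesis from tryptophan and nicotinic acid, had 14.7, 14.3 and 13.9 FPKM in the mid-day group and 10.6, 9.29 and 10.8 FPKM in the mid-night group. Its 6 libraries form a step of 0.45 ± 0.08 with little spread inside a group. Utp20 (small ribosomal subunit assembly), Polr3c (a subunit of RNA polymerase III), Etv6 (an ETS family repressor), Cobll1, Lrrc61 and Cyth2 (an exchange factor of ARF GTPases) differed by 0.39 to 0.56. Gapdh, the glycolytic enzyme gene, was among them through 1 short transcript. This transcript of 565 bases, ENSMUST00000147954, carried 62.7% of its FPKM in the mid-day group and 0.957% in the mid-night group. Its transcripts of 1272 and 1273 bases averaged 0.0177 and 0.0174 FPKM over the 6 libraries. Cyth2 also had a short transcript, of 538 bases, at 4.66, 3.42 and 2.95 FPKM by day and 0, 0 and 0 FPKM by night. The main Cyth2 transcript, of 1512 bases, had 12.2, 11.8 and 11.8 FPKM by day and 10.2, 9.87 and 10.8 FPKM by night.

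Among the lower genes, Miox (chromosome 15 from 89334398 to 89337015), the kidney enzyme that opens the ring of inositol, was the most abundant, with 879, 861 and 933 FPKM in the mid-day group and 1209, 1232 and 1116 FPKM in the mid-night group (difference -0.41 ± 0.07; limma adjusted p = 0.294). Rhob, a small GTPase of vesicle traffic, had 15.7, 17.1 and 17.9 FPKM in the mid-day group and 27.1, 28.8 and 24.5 FPKM in the mid-night group. Efnb1, a membrane-bound ephrin, had 5.19, 5.36 and 5.15 FPKM by day and 8.02, 9.08 and 8.03 FPKM by night, and Ackr3, a scavenging receptor of the chemokine CXCL12, had 27.7, 25.8 and 27.6 FPKM by day and 41.8, 37.9 and 35.9 FPKM by night. In each of these the mid-day libraries lay close to one another and below the mid-night ones. Gde1, a phosphodiesterase of glycerophospholipids, differed by -0.42, the corepressor gene Irf2bp2 by -0.62, and the zinc finger gene Zfp771 by -0.60. A Gde1 transcript of 433 bases had 1.94, 4.37 and 7.67 FPKM by day and 14.2, 14.7 and 15.3 FPKM by night. The main Gde1 transcript, of 1582 bases, had 47.1, 44.7 and 47.0 FPKM by day and 55.2, 54.8 and 54.6 FPKM by night. The histone H4 genes Hist1h4i (difference -0.75) and Hist1h4c (-0.63), and the ribosomal protein gene Rps15a (-0.53) belong to families of near-identical copies, so reads may have been split between copies. An Rps15a transcript of 250 bases had 1.53, 0 and 0 FPKM by day and 12.3, 11.3 and 18.7 FPKM by night. The main Rps15a transcript, of 640 bases, had 33.2, 43.0 and 43.1 FPKM by day and 54.9, 49.2 and 41.5 FPKM by night, with overlap. Rab26os (difference -0.90) is an antisense transcript of 298 bases. The libraries are strand-specific per the labels, but how strand was used in the estimates is not given in the sources used here. Snrpert (-0.51) is annotated as a processed pseudogene. Limma adjusted p over these 24 genes lay between 0.263 and 0.294.

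**Figure D2:**
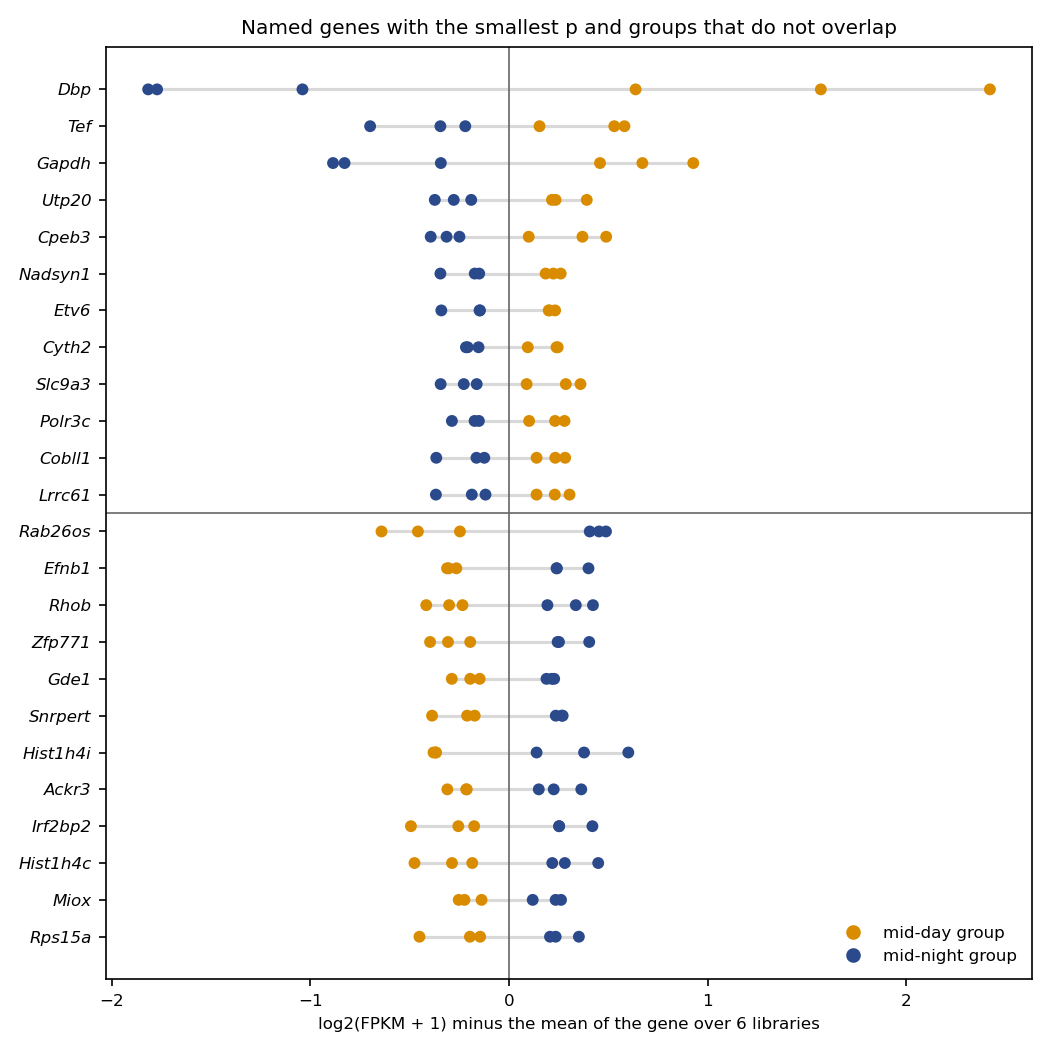
log2(FPKM + 1) of each library minus the mean of the gene over the 6 libraries (x axis) for the 24 named genes with the smallest p and groups that do not overlap (y axis, higher genes above the line, lower genes below it). Orange points are the 3 mid-day libraries and blue points the 3 mid-night libraries. Dbp spans the widest range, and most others are separated by a difference of 0.39 to 0.90 in size.

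Transport genes along the nephron differed little between groups apart from a few. In the proximal tubule, 2 of 10 genes of sodium, phosphate and acid transport were higher at unadjusted p under 0.05, against 4.89% of all genes, and 1 was lower. The 2 were Slc9a3 and Slc9a8, another sodium-proton exchanger, with 101, 103 and 79.2 FPKM by day and 84.3, 70.0 and 68.2 FPKM by night. Car2, the cytosolic carbonic anhydrase, was lower at 196, 203 and 209 FPKM by day and 246, 267 and 208 FPKM by night, where ZT0 and ZT12 were nearly equal. Of 20 genes of thick limb and distal salt transport, 1 was higher and 0 lower, Wnk1, the kinase upstream of the distal cotransporters, with a difference of 0.20 ± 0.07. Of 18 collecting duct genes 1 was higher, the basolateral water channel Aqp3 with 74.9, 78.6 and 94.3 FPKM by day and 69.9, 68.2 and 71.0 FPKM by night, and 1 was lower. The lower one was Avpr1a, a vasopressin receptor, with 3.52, 1.89 and 2.16 FPKM by day and 4.28, 6.56 and 6.24 FPKM by night (difference -0.93 ± 0.20; cosine adjusted p = 0.024). Aqp2, the apical water channel, had 82.3, 117 and 172 FPKM by day and 181, 178 and 107 FPKM by night, with overlap. Sgk1, the kinase that aldosterone and glucocorticoids induce, had 7.97, 8.49 and 21.2 FPKM in the mid-day group and 32, 23.3 and 12.7 FPKM in the mid-night group. Its groups overlapped through ZT12 and ZT0, and it passed under the cosine (cosine adjusted p = 0.0346).

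Among carriers of fuel, Slc16a1, which encodes the lactate and ketone carrier MCT1, had 12.9, 4.45 and 5.28 FPKM in the mid-day group and 11.9, 20.3 and 28 FPKM in the mid-night group. The difference was -1.36 ± 0.41 (cosine adjusted p = 0.0325), with ZT4 above ZT16. Slc2a5, the fructose carrier, was higher by day with 24, 39.6 and 34.7 FPKM, against 25.8, 19.9 and 23.7 FPKM by night. In all, 1 of 13 carriers of glucose, monocarboxylates and fructose was higher and 2 were lower. Of 16 amino acid and peptide carriers 0 were higher and 2 lower at unadjusted p under 0.05 in limma, and of 20 organic anion and cation carriers 1 was higher and 0 lower, shares near the background. Slc6a19, the carrier of neutral amino acids in the brush border, had 61.4, 64.8 and 47.5 FPKM by day and 26.4, 27.1 and 64.2 FPKM by night. Its low libraries were ZT16 and ZT20, while ZT0 was as high as the mid-day group.

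In metabolism, 17 of 21 cytochrome P450 and flavin enzymes had a positive difference, with a median of 0.15 against -0.02 over all genes. At unadjusted p under 0.05, 3 were higher and 1 lower, against 4.89% and 7.95% of all genes. Cyp2e1, which oxidises ethanol and small solvents, had 1165, 1101 and 1046 FPKM in the mid-day group and 835, 655 and 844 FPKM in the mid-night group (difference 0.51 ± 0.11). Por, the reductase that feeds electrons to these enzymes, had 114, 143 and 122 FPKM by day and 100.4, 87.5 and 103 FPKM by night. Cyp27b1, which makes active vitamin D, was higher by 0.47 ± 0.14. None of these 3 genes, which were named for their small p, overlapped between groups. Of the 21 tested, 4 had mid-day libraries all above the mid-night ones and 1 had them all below, against 7.45% and 11.2% of all genes. Cyp2d26 ran the other way with 35.9, 35.1 and 37.0 FPKM by day and 45.3, 54.7 and 45.5 FPKM by night. Of 23 genes of fatty acid oxidation 1 was higher and 3 were lower. Cpt1a, which admits long-chain fatty acids to mitochondria, had 113, 124 and 118 FPKM by day and 79.7, 71.4 and 108 FPKM by night, without overlap. Acot1, an acyl-CoA thioesterase, had 14.3, 13.5 and 13.6 FPKM by day and 17.6, 26.4 and 27.5 FPKM by night, also without overlap. Ppard, a nuclear receptor for fatty acids, had 10.2, 4.19 and 4.21 FPKM by day and 6.42, 20.3 and 18.4 FPKM by night (cosine adjusted p = 0.0346).

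Cholesterol genes split. Of 22 tested, 1 was higher and 5 lower at unadjusted p under 0.05, against 4.89% and 7.95% of all genes. The median difference of the 22 was -0.16. Hmgcs1, which makes the precursor of mevalonate, had 310.2, 316 and 283 FPKM in the mid-day group and 249, 232 and 226 FPKM in the mid-night group (difference 0.36 ± 0.07). The lower genes included Insig1, which retains SREBP in the endoplasmic reticulum, and the synthesis enzymes Msmo1 and Fdps. Insig1 had 17.6, 16.6 and 19.0 FPKM by day and 21.3, 33.3 and 25.7 FPKM by night, without overlap, and Msmo1 had 14.1, 11.7 and 13.0 FPKM by day and 15.7, 18.4 and 15.4 FPKM by night.

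Most chaperone genes had a negative difference, a minority of them at unadjusted p under 0.05 and 0 at adjusted p under 0.05 in limma. Of 18 genes of the endoplasmic reticulum chaperones and the unfolded protein response, 15 had a negative difference and 6 were lower at unadjusted p under 0.05 (median -0.42; 7.95% of all genes were lower). Sdf2l1, a cofactor of the chaperone BiP, had 5.08, 4.12 and 4.51 FPKM in the mid-day group and 24.4, 17.6 and 7.83 FPKM in the mid-night group (difference -1.53 ± 0.35; limma adjusted p = 0.294). Calr, which encodes the calcium-binding chaperone calreticulin, had 314, 259 and 251 FPKM by day and 434, 459 and 330.1 FPKM by night. Both were highest at ZT16 or ZT20, and their ZT0 library lay above the mid-day range. Of 18 cytosolic heat shock proteins 16 had a negative difference and 3 were lower, Hsp90aa1, Hspb1 and Hspa4l. Hsp90aa1 had 164, 135 and 127 FPKM by day and 350.5, 262 and 160.3 FPKM by night, with ZT0 below ZT4. Hspb1, the small heat shock protein HSP27, had 3.20, 5.19 and 5.58 FPKM by day and 21.9, 12.2 and 5.71 FPKM by night. Without ZT0 the counts were 13 and 11, and without ZT16 they were 3 and 1. Without both ZT16 and ZT20 the mid-night group is ZT0 alone. The medians of both lists then changed sign, to 0.12 for the endoplasmic reticulum genes and 0.12 for the cytosolic ones. The members with a positive difference, named after their values were seen, were Hspa8 (0.43), Hspa4 (0.25), Dnajb9 (0.29), Herpud1 (0.27) and Selenos (0.01), and none of these 5 had an unadjusted p under 0.05. Outside these lists, Rbm3, an RNA-binding protein induced by cold, had 60.3, 68.4 and 81.6 FPKM by day and 57.0, 42.1 and 55.1 FPKM by night.

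In the other stress lists described here a minority of genes passed the unadjusted threshold. Of 15 hypoxia genes 1 was higher and 5 lower, against 4.89% and 7.95% of all genes. The widest difference was that of Ndrg1, with 1018, 312 and 495 FPKM in the mid-day group and 880.3, 1474 and 1603 FPKM in the mid-night group. Its ZT4 library was inside the mid-night range. Vegfa, the vascular growth factor, had 57.9, 57.7 and 58.9 FPKM by day and 70.2, 75.2 and 62.9 FPKM by night. Of 17 NRF2 and antioxidant genes 0 were higher and 5 lower at unadjusted p under 0.05 in limma, against the same 4.89% and 7.95%. They included Gpx3, the secreted glutathione peroxidase, with 7943, 8621 and 7955 FPKM by day and 9451, 9993 and 9452 FPKM by night. Among immediate early genes 1 of 18 was higher, Zfp36, which destabilises cytokine mRNA, with 8.82, 10.5 and 12 FPKM by day and 7.97, 6.98 and 7.60 FPKM by night. The 2 lower ones were Ier5 and Jund. Ccnd1, cyclin D1, had 75.2, 86.1 and 89.7 FPKM in the mid-day group and 44.3, 48.6 and 75.0 FPKM in the mid-night group, where ZT0 nearly reached ZT4. Cdkn1a, the p21 inhibitor of cyclin-dependent kinases, had 2.48, 1.06 and 1.23 FPKM by day and 2.2, 3.87 and 4.33 FPKM by night (cosine adjusted p = 0.0409).

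Genes of the ribosome showed small differences shared by many members. Of 26 cytosolic ribosomal protein genes 25 had a negative difference (median -0.18). At unadjusted p under 0.05 in limma 11 were lower, against 7.95% of all genes. In 12 the mid-day libraries were all below the mid-night ones, against 11.2% of all genes. Rpl8 had 142, 173 and 174 FPKM by day and 204, 209.9 and 189 FPKM by night. ZT4 was its lowest library, and the list's median without ZT4 was -0.11. With libraries rescaled by the median of ratios 7 genes passed, and without ZT16 or ZT20 the counts were 3 and 1. These genes have processed pseudogenes, between which and the genes reads may have been split. Of 25 nuclear genes of the respiratory chain and ATP synthase 2 were lower and 0 higher. Transcripts of the mitochondrial genome were uneven. Of 15 tested, 11 had a positive difference (median 0.14), and 1 was higher and 3 lower at unadjusted p under 0.05. mt-Nd5 had 14605, 10063 and 9992 FPKM by day and 8456, 6241 and 9823 FPKM by night, and the 16S ribosomal RNA mt-Rnr2 had 1256, 1117 and 1393 FPKM by day and 3199.6, 2334 and 1229.5 FPKM by night, high at ZT16 and ZT20.

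**Figure D3:**
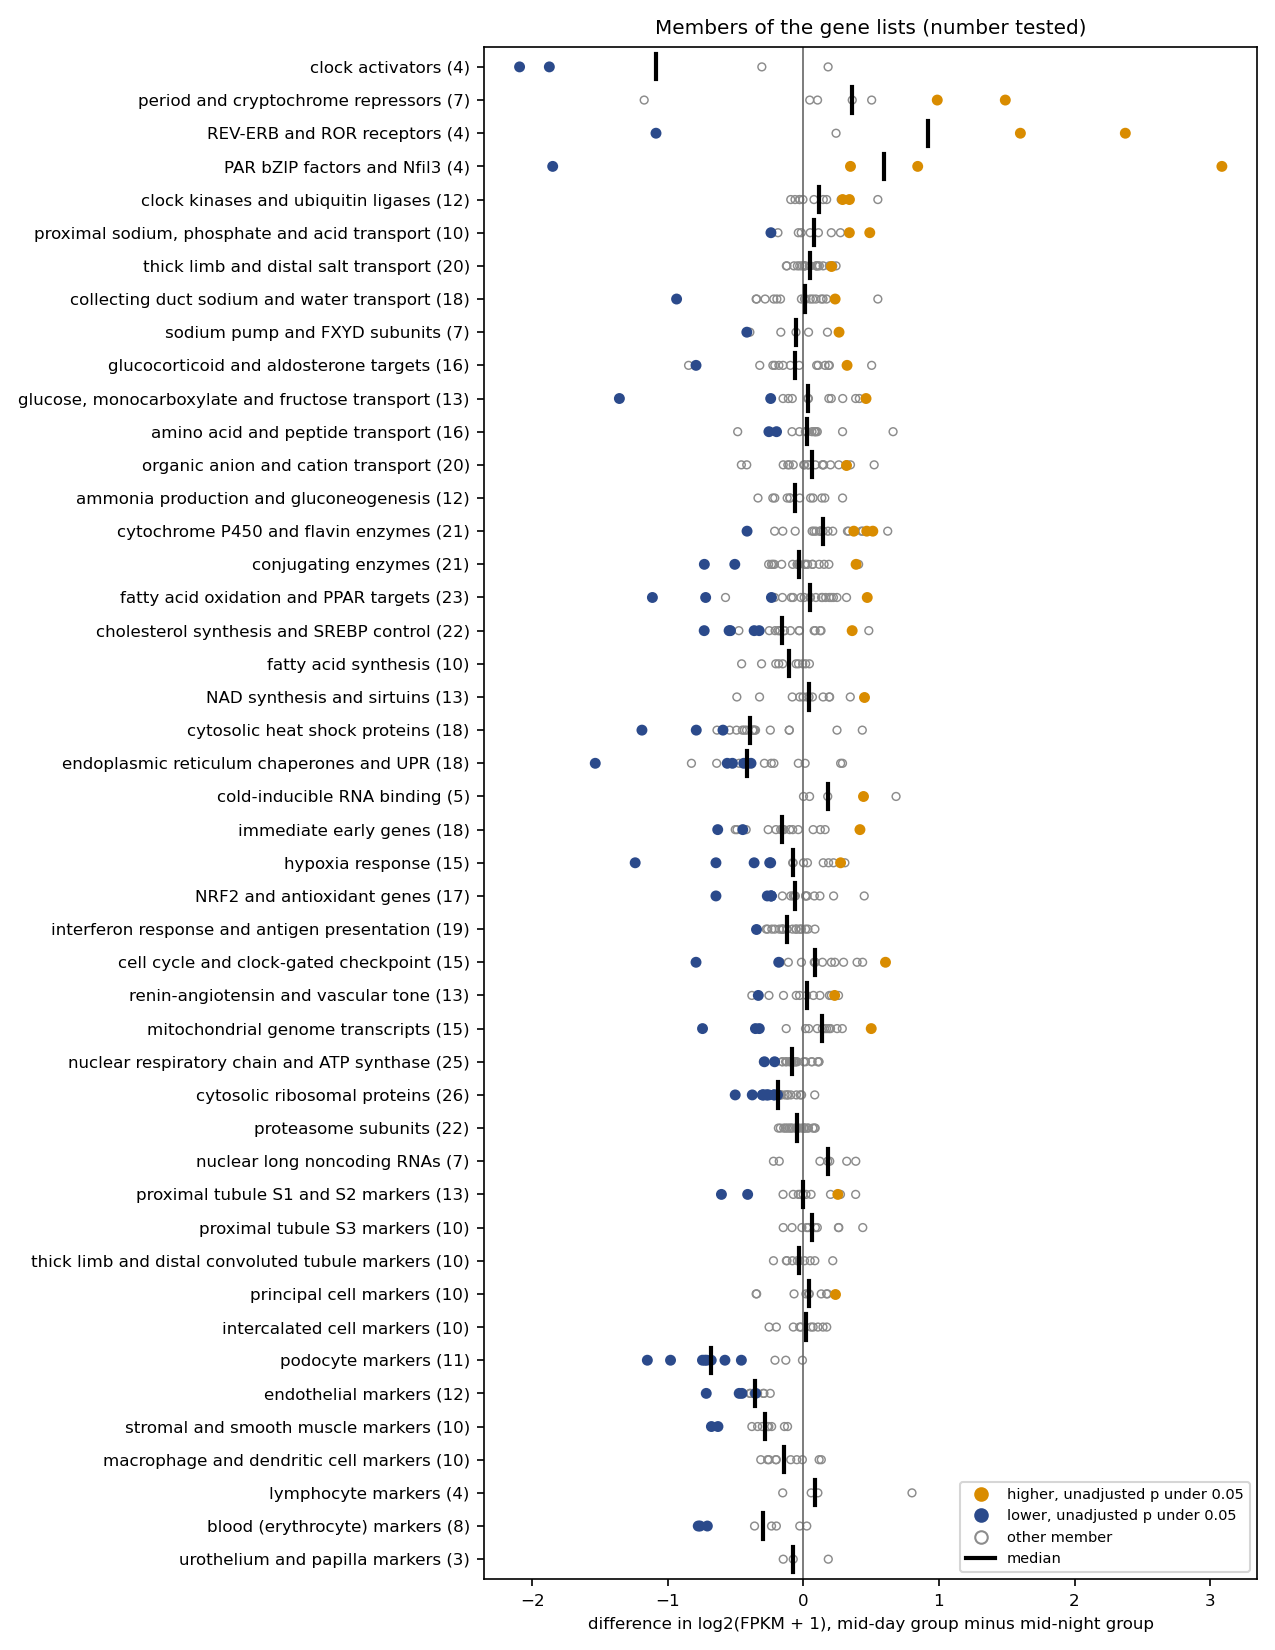
Difference in log2(FPKM + 1), mid-day group minus mid-night group (x axis), of each tested member of the lists with at least 3 members tested (y axis, number tested in brackets). Filled points passed an unadjusted p under 0.05 (orange higher, blue lower), open points did not, and bars are medians. The widest differences belong to the clock lists, and the medians of the podocyte, endothelial, heat shock and endoplasmic reticulum lists lie left of 0.

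Most podocyte markers were lower in the mid-day group at unadjusted p under 0.05, and a minority of endothelial and stromal markers were. In whole kidney RNA, fewer cells of a type and less RNA per cell cannot be told apart. Of 12 podocyte markers 11 were tested, 11 had a negative difference, and 8 were lower at unadjusted p under 0.05 with mid-day libraries all below the mid-night ones. Of all genes, 7.95% were lower and 11.2% had mid-day libraries all below, with a median difference of -0.02. The median of the podocyte list was -0.68. The FPKM summed over the list was 44.2 to 53.5 in the mid-day group and 67.2 to 115 in the mid-night group. Cdkn1c, the p57 cell cycle inhibitor of resting podocytes, had 4.09, 5.63 and 5.52 FPKM by day and 12.6, 14 and 7.24 FPKM by night. Nphs1, which encodes nephrin of the slit diaphragm, had 0.882, 1.2 and 0.712 FPKM by day and 2.18, 2.98 and 1.64 FPKM by night (difference -0.74 ± 0.18; limma adjusted p = 0.301). Synpo, an actin-binding protein of foot processes, had 4.77, 4.26 and 3.81 FPKM by day and 7.29, 10.0 and 5.56 FPKM by night. The order of libraries was alike in these genes, with ZT20 highest, ZT16 next and ZT0 between them and the mid-day group. With each library left out in turn 7 or 8 of the 11 passed. Without both ZT16 and ZT20, with ZT0 alone as the mid-night group, the median was -0.33.

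Of 12 endothelial markers 12 had a negative difference and 4 were lower, against 7.95% of all genes. In 3 the mid-day libraries were all below the mid-night ones, against 11.2% of all genes. The median of the list was -0.36, and its summed level 108 to 126 FPKM by day and 130.2 to 203 FPKM by night. Eng, the TGF-beta coreceptor endoglin, had 17.5, 14.1 and 15.1 FPKM by day and 26.2, 34.8 and 19.4 FPKM by night, and Egfl7, a protein secreted by endothelium, had 17.6, 18.1 and 16.3 FPKM by day and 22, 25.7 and 24.8 FPKM by night. Without ZT0 the count at unadjusted p under 0.05 was 12 and without ZT8 it was 2. Without both ZT16 and ZT20, with ZT0 alone as the mid-night group, the median was 0.04. Of 10 stromal and smooth muscle markers 10 had a negative difference and 2 were lower, Tagln and Acta2, both of smooth muscle. In 1 of the 10 the mid-day libraries were all below the mid-night ones. The summed level of the list was 47.5 to 52.6 FPKM by day and 52.0 to 83.9 FPKM by night, with overlap. Tagln had 4.21, 4.57 and 4.46 FPKM by day and 7.79, 11.2 and 5.03 FPKM by night. Of 8 erythrocyte markers 3 were lower, all globins, against 7.95% of all genes. The summed level of the list was 171 to 250 FPKM by day and 216 to 358 FPKM by night, with overlap. Hbb-bs had 83.6, 79.1 and 123 FPKM by day and 204, 188 and 105 FPKM by night (cosine adjusted p = 0.0346). The count of erythrocyte markers was 0 when any one of ZT4, ZT8, ZT16 and ZT20 was left out and 4 without ZT12 or ZT0. Tubule markers stayed near the background. Over the lists for proximal tubule, thick limb and distal tubule, principal and intercalated cells, medians lay between -0.04 and 0.06, and 2 of 53 markers were higher and 2 lower at unadjusted p under 0.05. Levels of podocyte, endothelial, stromal and blood markers moved with ZT16 and ZT20 in the same direction as the chaperones, and their part in the other differences was not tested.

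**Figure D4:**
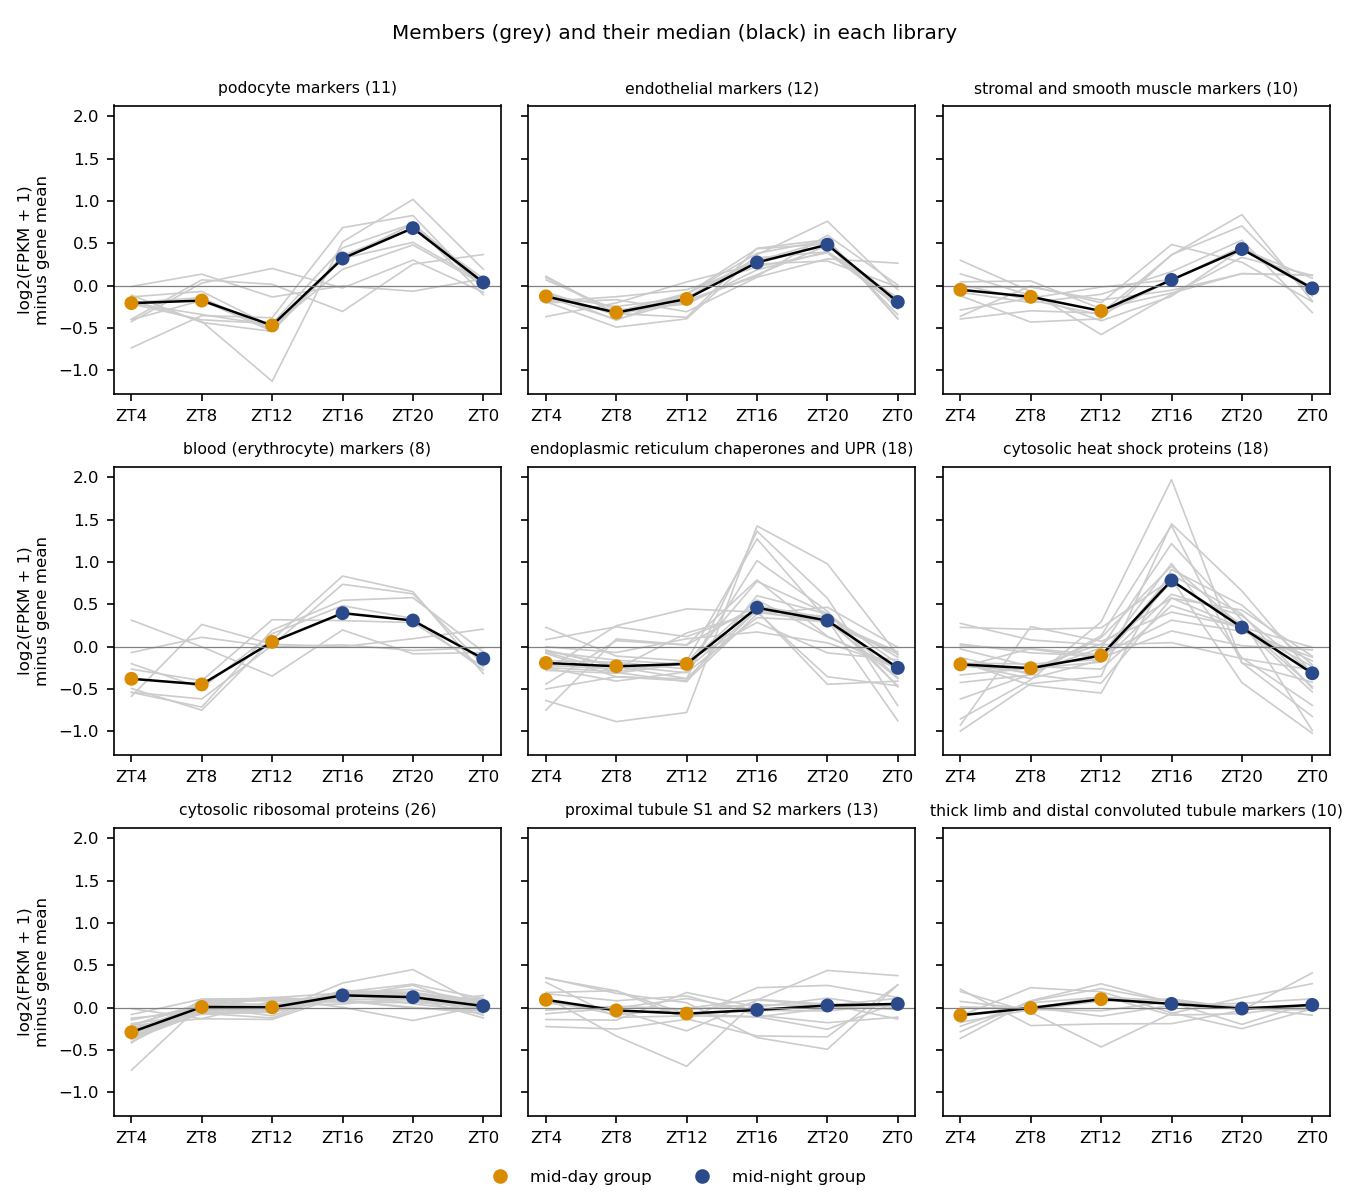
log2(FPKM + 1) minus the mean of the gene (y axis) in the 6 libraries in order of time (x axis) for the members of 9 lists, with the number tested in brackets. Grey lines are single genes and the black line with points is the median (orange mid-day, blue mid-night). Podocyte, endothelial, stromal, erythrocyte and chaperone medians are above 0 at ZT16 and ZT20, and both tubule medians stay near 0.

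Single transcripts passed the adjusted threshold where summed genes did not. Of 21596 transcripts with a mean of at least 1 FPKM, 23 passed an adjusted p under 0.05 (0.107%; limma, Benjamini-Hochberg over all transcripts), and of these 17 rose and 6 fell in the mid-day group. They belong to 21 genes. The summed level of 10 of these genes overlapped between groups, and 6 of the 21 genes passed unadjusted p under 0.05 as sums. Without ZT12 the count of transcripts was 4 and without ZT0 it was 30. The split of a gene's reads over its transcripts is an estimate whose error is not known here.

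Tmem59, which encodes a membrane protein of the Golgi and late endosomes, had 2 such transcripts. ENSMUST00000141013 (808 bases) rose to 37.8, 40.5 and 42.7 FPKM in the mid-day libraries, against 8.02, 7.86 and 7.54 FPKM in the mid-night libraries (difference 2.23 ± 0.08; limma adjusted p = 0.000293). It made up 24.6% of the FPKM of the gene by day and 5.58% by night, with hardly any spread inside a group. Prdx1, which encodes a peroxiredoxin that removes hydrogen peroxide, had a pair of short transcripts that changed in opposite directions (limma adjusted p = 0.0175 and 0.00573). ENSMUST00000151129 stood at 83.4, 80.2 and 79.5 FPKM by day and 11.7, 11.6 and 5.45 FPKM by night. ENSMUST00000030454 stood at 0, 0.0442 and 0 FPKM by day and 60.8, 50.9 and 23.6 FPKM by night. The sum of the gene was 394, 442 and 397 FPKM by day and 434, 404 and 381 FPKM by night, with overlap.

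Rps10, a ribosomal protein gene, had a similar pair. ENSMUST00000025052 had 47.4, 21.5 and 30.1 FPKM by day and was listed at 0 in all 3 mid-night libraries, while ENSMUST00000114882 had 21.9, 42.7 and 46.2 FPKM by day and 64.4, 58.4 and 55.0 FPKM by night. Only the first of the pair passed the adjusted threshold (limma adjusted p = 0.00312), and the sum of the gene overlapped. Rps28 had a transcript, ENSMUST00000173844, that fell to 11.7, 11.1 and 13.9 FPKM by day, against 58.8, 51.1 and 39.1 FPKM by night (limma adjusted p = 0.0175). For Cox6b1, a subunit of cytochrome c oxidase, ENSMUST00000207851 rose to 159.6, 191 and 163 FPKM by day, against 67.3, 69.8 and 49.3 FPKM by night (limma adjusted p = 0.0351). Kcnj1, which encodes the potassium channel ROMK of the thick limb and collecting duct, had a minor transcript of 1277 bases at 6.03, 3.96 and 6.47 FPKM by day and 0, 0 and 0.163 FPKM by night, or 5.96% of the gene by day. Fbxw11, a ubiquitin ligase subunit known to target period proteins, had the transcript ENSMUST00000076383 at 19.2, 11.8 and 8.00 FPKM by day and 0.0156, 1.43 and 0.0101 FPKM by night. Its other long transcript, ENSMUST00000093205, had 6.03, 10.5 and 12.8 FPKM by day and 21.5, 16.9 and 18.8 FPKM by night, and neither passed the adjusted threshold. Of 4981 genes with at least 2 transcripts tested, 189 had transcripts that differed in opposite directions at unadjusted p under 0.05, and 24 of these genes passed the same threshold as sums.

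**Figure D5:**
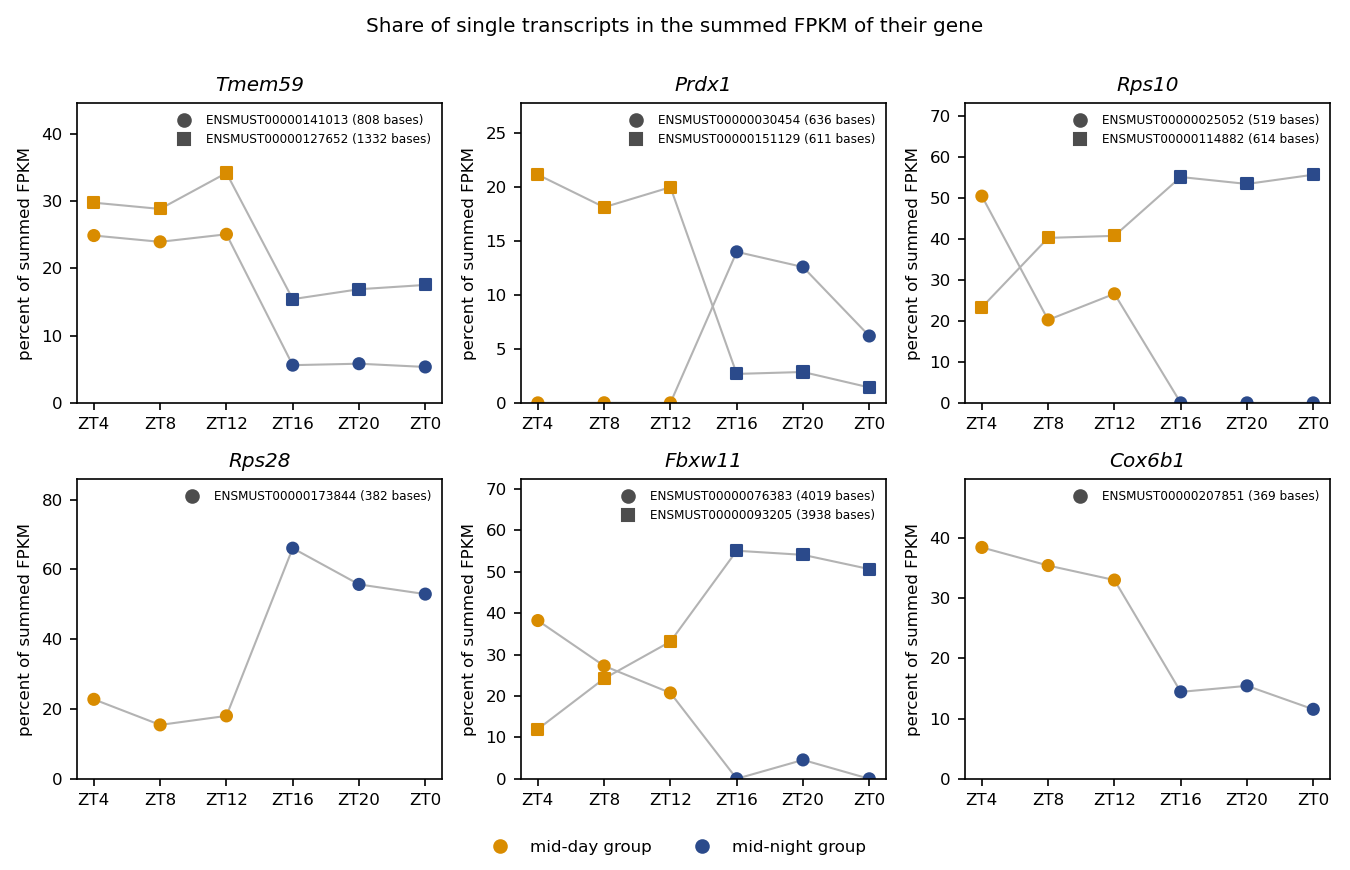
Share of single transcripts in the summed FPKM of their gene, in percent (y axis, from 0), in the 6 libraries in order of time (x axis) for 6 genes. Symbols tell transcripts of a gene apart, with their length in bases, and colour gives the group (orange mid-day, blue mid-night). The shares step between ZT12 and ZT16 and again between ZT0 and ZT4, and vary less within a group in Tmem59 and Cox6b1 than in Rps10.

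Some genes with wide ranges did not pass the test between the groups. Of the 6 genes with the widest range among those with an unadjusted p of at least 0.05 and a mean of at least 5 FPKM, 5 were small RNAs listed at 0 in at least 3 libraries, Rny1, Mir7-1, Mir8103, n-R5s193 and Snord22. The sixth was Prlr, the prolactin receptor, with 3.56, 0.483 and 3.45 FPKM by day and 2.07, 23.0 and 7.98 FPKM by night, where ZT20 alone held most of the level.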

How the data were processed

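Per the labels, RNA of frozen kidneys was isolated by Trizol and columns, and an Agilent SureSelect kit gave strand-specific libraries. Named in the submitters' processing notes are mm9 as the build and bcl2fastq 2.20. No aligner or program behind the FPKM is given in the sources used here. FPKM values deposited by the authors fill 1 table of 128603 Ensembl transcripts (51803 symbols) by 6 libraries. Transcript length in bases is another deposited column, per the file headers. Of 127971 transcripts matched to GENCODE mouse release M21 by identifier, 98.59% lay inside the locus of the table, so positions are those of GRCm38. Promoters are from RefSeq, and 18 of 20 genes looked up had one.

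FPKM values were summed over the transcripts of a symbol. Genes that averaged 1 FPKM or more entered limma 3.58.1 (R 4.3.3) as log2(FPKM + 1), with a trended eBayes after lmFit, two-sided, on 4 residual degrees of freedom, adjusted by Benjamini-Hochberg at 0.05, and transcripts were tested in the same way. The script was tested on simulated data. The cosine left 3 residual degrees of freedom. Alternatives were the top transcript, a pseudocount of 0.1, no filter, a floor of 5 FPKM on the mean, scaling by quantiles or by the median of ratios, levels rescaled without mitochondrial transcripts, limma without trend or with robust moderation, pairs of libraries 12 h apart as a block, the cosine, a threshold of 0.1, and the omission of each library or of ZT16 and ZT20 together. The restriction to transcripts of at least 200 bases, the adjusted count of transcripts and the counts of lists under the alternatives were added after the data were seen. The comparison and the 49 gene lists were chosen with earlier results of these data known, so lists are described by counts and medians.

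Genes named are the clock genes tested, 12 in each direction with the smallest p among genes averaging 5 FPKM or more with groups that do not overlap (named models only), up to 4 with the smallest p in each list and 2 with the widest range in cell type lists, 6 with transcripts of opposite sign and the widest gap, and 6 with the widest range among genes with unadjusted p of at least 0.05. The text prints part of them, and some are not reported here. The transcripts of Tmem59, Cox6b1, Rps28, Kcnj1, Gm20257, Gapdh, Cyth2, Gde1 and Rps15a and the genes of the closing section were chosen after their values were seen. Tables and plots were made with pandas 2.3.3, numpy 2.4.6 and matplotlib 3.10.9 under Python 3.11.15.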

Additional observations from a re-analysis of the deposited data

How the results depend on the processing

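The count of genes at adjusted p under 0.05, which was 0, stayed 0 with a pseudocount of 0.1, a minimum mean of 5 FPKM, both scalings, no trend, robust moderation, 12 h pairs as a block and transcripts of at least 200 bases. It was 2 with the top transcript, 1 without a filter, 1 with levels rescaled without mitochondrial transcripts, 1 at a threshold of 0.1, 45 under the cosine, 9 without ZT16 and ZT20, and 0 to 3 with one library left out. The unadjusted count (1631) was 2451 under the cosine, 672 without ZT16 and ZT20 and 724 (without ZT20) to 2526 (without ZT0) with one library left out, and lay between 1189 and 2246 under the others. The labels number no replicates, so no pairing comes from them. With libraries 12 h apart taken as pairs, a block for the pair gave 1189 genes. Of 2714 transcripts at unadjusted p under 0.05, a minimum mean of 5 FPKM left 1422, and leaving out one library gave 1574 to 3806; at adjusted p under 0.05 (23 transcripts) the count was 4 (without ZT12) to 30 (without ZT0). The cause of these shifts was not tested, except that a higher minimum tests fewer transcripts and a left-out library leaves fewer samples. Among the genes named, Per2 changed sign under the cosine (-0.040), without ZT8, without ZT12 and without ZT0, with a range of -0.77 (without ZT0) to 0.59 (without ZT16) when one library was left out. Cry2 changed sign without ZT12 and without ZT0 (-0.11 without ZT0 to 0.26 without ZT4). Selenos changed sign under the cosine (-0.016), without ZT12 and without ZT0 (-0.10 without ZT0 to 0.10 without ZT16), and Hspa4 with the top transcript (-0.022). Aqp2 (0.14), Slc6a19 (-0.16) and mt-Rnr2 (0.024) changed sign without ZT16 and ZT20. The other 1611 values of 86 genes kept the sign of the difference. With ZT16 and ZT20 left out the mid-night group is ZT0 alone, which is assumed to vary like the other libraries. Depth is unknown, so differences of low genes may be lost in counting error that cannot be given.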

Other observations

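The cosine along ZT8 to ZT20 also called genes outside the lists, and the following were chosen after their values were seen. Upp2, a uridine phosphorylase, had 11.1, 19.7 and 15.1 FPKM in the mid-day group and 7.42, 5.13 and 8.09 FPKM in the mid-night group (limma adjusted p = 0.0346 under the cosine), without overlap. Coq10b, a mitochondrial coenzyme Q-binding protein, had 38.4, 79.9 and 73.8 FPKM by day and 52.7, 33.3 and 24.4 FPKM by night. Vps8, of the endosomal tether CORVET, had 42.6, 47.6 and 37.6 FPKM by day and 30.3, 21.6 and 29.1 FPKM by night. Upp2 and Vps8 were lowest at ZT20 and Coq10b at ZT0.

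The next genes were higher around ZT20 along the cosine axis, which does not place their peaks. Rhobtb1, an adaptor of cullin ubiquitin ligases, had 19.7, 9.91 and 13.0 FPKM by day and 28, 32.8 and 28.3 FPKM by night, without overlap. Id2, a dominant-negative partner of helix-loop-helix factors, had 244, 215 and 269 FPKM by day and 381, 369 and 295 FPKM by night. Nr2f6, an orphan nuclear receptor, had 63.3, 43.7 and 47.3 FPKM by day and 66.3, 91.1 and 81.6 FPKM by night, and Llgl2, a gene of cell polarity, had 21.1, 17.1 and 20.1 FPKM by day and 25.4, 33.3 and 30.6 FPKM by night. Clpx, the unfoldase of a mitochondrial protease, had 67.0, 39.7 and 36.6 FPKM by day and 49.4, 71.2 and 95.4 FPKM by night. Ypel2 had 5.56, 2.37 and 3.26 FPKM by day and 7.62, 9.47 and 10.5 FPKM by night.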
